A study of Mus musculus with 14 samples.

Results

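Skeletal muscle RNA was measured in mouse aortas that had been dissected with the fat around them, and in cells taken from blood. The genes described here are 32 named components of the skeletal muscle fibre, of 22180 genes measured. They were chosen by name, with earlier results of these data known. All 32 were represented, by 35 probe sets that each carried a single gene symbol (Ckm, Ryr1 and Xirp2 had 2 each, which were averaged). All mice lacked apolipoprotein E. There were 4 aorta samples from mice that also lacked the lymphotoxin beta receptor (ApoE/LTbR double-deficient, titled KO) and 4 from ApoE-deficient littermates (titled WT). CD115+ cells, the monocyte fraction held by CD115 MicroBeads after a Ficoll gradient, gave 3 double-deficient and 3 ApoE-deficient preparations, and 2 of the latter (replicates 3 and 4) were pools of samples. All mice were males aged 12 weeks on a Western type diet for 4 weeks from the age of 8 weeks. The labels do not say whether a deletion was limited to a cell type.

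A skeletal muscle fibre contracts when myosin of the thick filament pulls on actin of the thin filament. Calcium released from the sarcoplasmic reticulum binds troponin and exposes the actin sites, and pumps then return it to the store. The filaments are anchored at Z-discs, and titin links the Z-disc to the thick filament. Fast and slow fibres use different myosin, troponin and pump genes. The aortic wall itself is built with smooth muscle, which uses other actin and myosin genes, while the heart shares titin, myoglobin and several Z-disc proteins with skeletal muscle.

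The values are log2 signals set against the probe set's median in the same tissue, so 0 is the median array and 1 is a doubling, if the unstated log base is 2. Levels therefore cannot be compared between genes or between tissues. With 3 or 4 arrays a group, their number limits the precision. The genotype difference, double-deficient minus ApoE-deficient, was tested with limma over all genes, with a threshold of 0.05 after Benjamini-Hochberg adjustment. The labels call the samples separate but do not state that each was 1 mouse, so p-values measure the spread between samples. Ltbr, the gene of the lymphotoxin beta receptor, differed by -1.64 (SE 0.17, adjusted p = 0.0679) in aorta and by -0.72 (SE 0.18, adjusted p = 0.976) in CD115+ cells, without overlap of the groups in either, and passed the adjusted threshold in neither. Where its probe set lies relative to the deleted stretch is not given in the labels. Array medians over all genes lay between -0.0115 and 0.0067.

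In aorta the muscle genes split the 8 arrays across the genotypes. The mean of the 32 genes was -0.79, -0.85, -0.56 and 0.89 in double-deficient replicates 1 to 4, and -0.97, 1.13, 1.35 and 0.38 in ApoE-deficient replicates 1 to 4. Double-deficient replicate 4 thus lay with ApoE-deficient replicates 2, 3 and 4 above the median, and ApoE-deficient replicate 1 lay lowest of all. For 24 of the 32 genes those same 4 arrays were the 4 highest, an order held by 1.46% of all genes. The count stayed at 24 after quantile normalization, after centring each array on its median, and with the probe set of largest SD for each gene. ApoE-deficient replicate 3 was the highest array for 21 of the 32, against 14.6% of all genes. ApoE-deficient replicate 1 was the lowest for 14, against 14.2% of all genes. In these bulk samples more muscle cells and more RNA per muscle cell cannot be told apart.

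**Figure D1:**
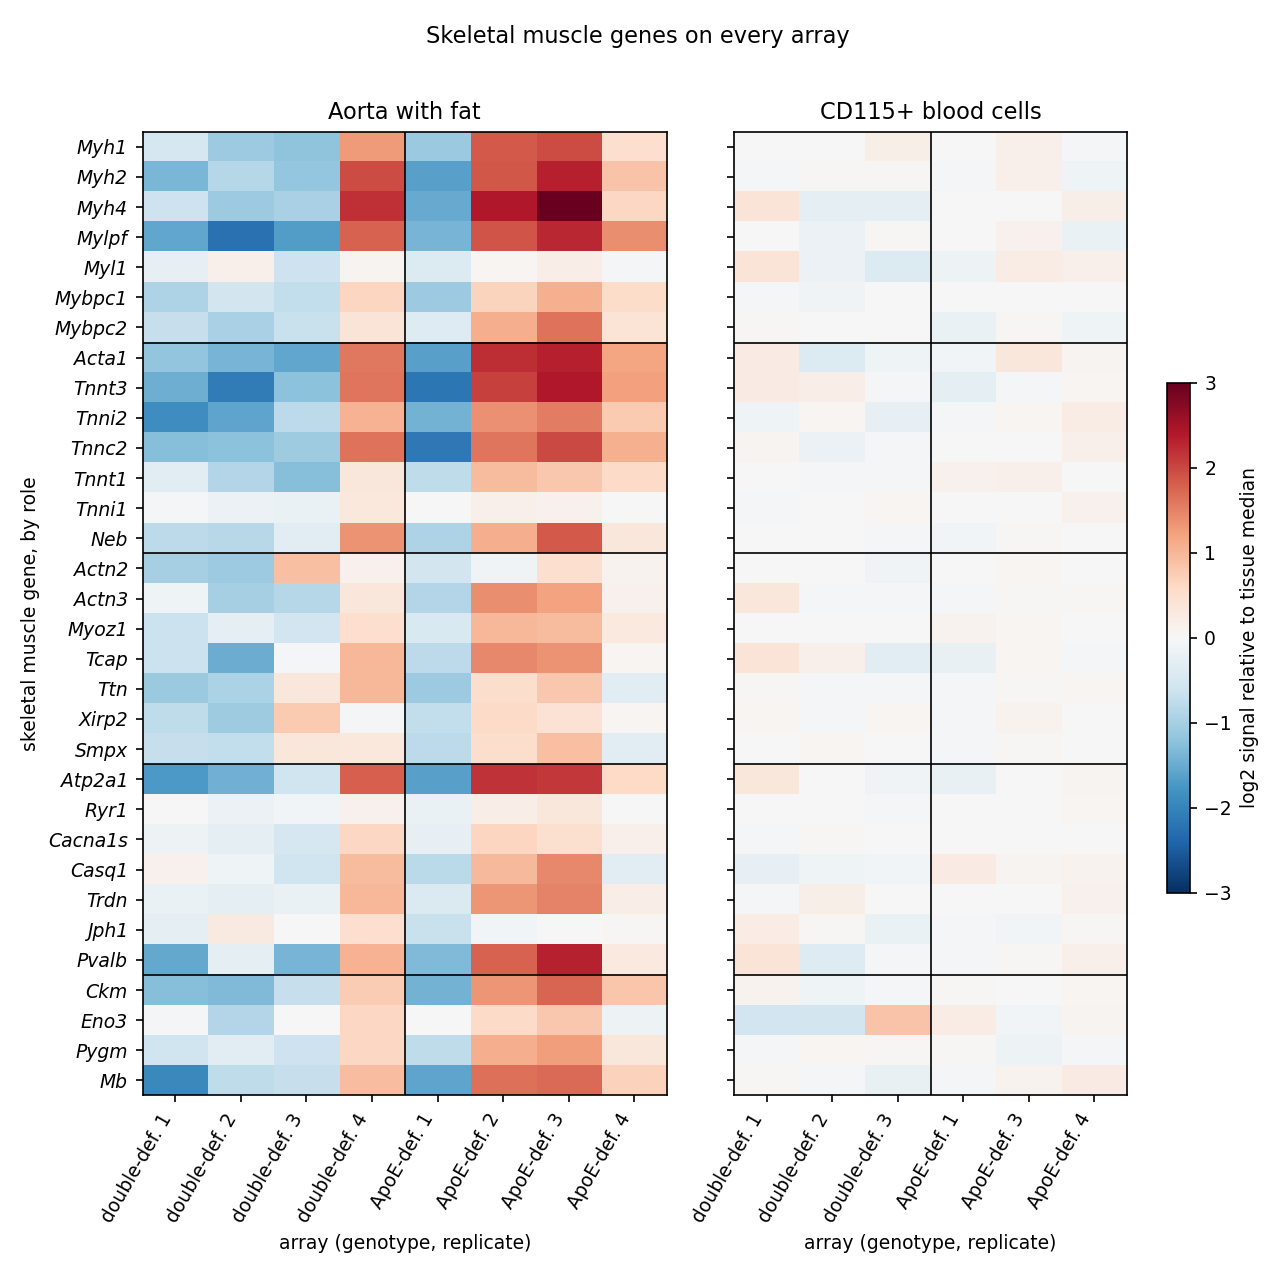
Signal of the 32 skeletal muscle genes (rows, ordered by role, black lines between roles) on the 8 aorta arrays and the 6 CD115+ arrays (columns, by genotype and replicate), as log2 relative to the tissue median on a colour scale that is the same for both tissues. In aorta, double-deficient replicate 4 and ApoE-deficient replicates 2 to 4 are red for most genes, while nearly all CD115+ values lie close to 0.

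The spread over the aorta arrays was wide. The SD within genotype had a median of 0.87 over the 32 genes, against 0.19 over all genes, and 26 of the 32 had a larger SD than 95% of all genes. For 14 it was larger than 99% of all genes. The highest and lowest aorta array were at least 2 apart on the log2 scale for 22 of the 32, against 3.07% of all genes. Tnnt3, Mylpf and Myh4 spanned 23.6-fold, 22.6-fold and 22.4-fold between their lowest and highest array. At the other end Tnni1 spanned 1.41-fold and Ryr1 1.46-fold.

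Among the thick filament genes, the myosin heavy chains of fast fibres moved over the arrays together. Myh4 lay at -0.63, -1.08, -0.98 and 2.19 in double-deficient replicates 1 to 4 and at -1.52, 2.40, 2.96 and 0.63 in ApoE-deficient replicates 1 to 4. Myh2 lay at -1.36, -0.85, -1.16 and 1.96 against -1.64, 1.87, 2.34 and 0.85. Myh1 lay at -0.50, -1.09, -1.20 and 1.28 against -1.11, 1.85, 1.95 and 0.50. In each, 1 double-deficient array stood with the high ApoE-deficient arrays and 1 ApoE-deficient array with the low double-deficient ones, so the groups overlapped. The differences were -1.24 (SE 1.11) for Myh4, -1.21 (SE 1.03) for Myh2 and -1.17 (SE 0.80) for Myh1, each within about 1.5 times its SE. The 3 genes are neighbours on chromosome 11 and have similar sequences, and how far their probe sets take up each other's RNA was not tested.

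The light chains differed from each other. Mylpf, the regulatory light chain of fast fibres, lay at -1.55, -2.23, -1.67 and 1.76 in double-deficient aortas and at -1.39, 1.88, 2.27 and 1.39 in ApoE-deficient replicates 1 to 4. It had the largest difference of the 32 genes, -1.96 (SE 1.07, adjusted p = 0.711), and its groups overlapped. Myl1, the alkali light chain of fast fibres, lay between -0.63 and 0.16 in double-deficient and between -0.41 and 0.20 in ApoE-deficient aortas, with a difference of -0.10 (SE 0.20). Its highest double-deficient array was replicate 2, not replicate 4.

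Myosin-binding protein C, which braces the thick filament, has a fast form encoded by Mybpc2 and a slow form encoded by Mybpc1. Mybpc2 lay at -0.70, -0.97, -0.66 and 0.39 in double-deficient aortas and at -0.39, 1.09, 1.63 and 0.42 in ApoE-deficient replicates 1 to 4. Its difference of -1.17 (SE 0.47) had an unadjusted p of 0.0362 and an adjusted p of 0.613 over all genes in limma. It was the 1 gene of the 32 with an unadjusted p under the threshold. Mybpc1 differed by -0.69 (SE 0.52).

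The thin filament genes Tnnt3, Acta1, Tnnc2, Tnni2 and Neb had the same 4 highest arrays. Tnnt3, the troponin subunit that binds tropomyosin, lay at -1.46, -2.09, -1.22 and 1.60 in double-deficient aortas and at -2.16, 2.04, 2.40 and 1.22 in ApoE-deficient replicates 1 to 4. Acta1, the actin of skeletal muscle, lay at -1.18, -1.39, -1.56 and 1.59 against -1.63, 2.21, 2.34 and 1.18. Tnnc2, the calcium-binding troponin subunit, lay at -1.27, -1.23, -1.07 and 1.63 against -2.14, 1.60, 1.98 and 1.07. For all 3 the range of the double-deficient arrays lay inside that of the ApoE-deficient arrays, and the differences were -1.66 (SE 1.16), -1.66 (SE 1.04) and -1.11 (SE 1.03). Tnni2, the inhibitory subunit, differed by -1.36 (SE 0.83), and Neb, which encodes the thin filament ruler nebulin, by -0.74 (SE 0.69).

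The slow-fibre troponins spread less. Tnnt1 lay at -0.34, -0.89, -1.28 and 0.34 in double-deficient aortas and at -0.77, 0.94, 0.81 and 0.58 in ApoE-deficient replicates 1 to 4, a difference of -0.93 (SE 0.46, unadjusted p = 0.0801). Tnni1 lay between -0.19 and 0.32 on all 8 arrays, with a difference of -0.09 (SE 0.12). Over the 3 genes classed as slow-fibre (Tnnt1, Tnni1 and Mybpc1) the mean ran from -0.73 to 0.67 over the arrays. Over the 14 fast-fibre genes it ran from -1.23 to 1.81. Both classes were above 0 on the same 4 arrays.

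Of the 8 genes that departed from that order, 4 were Z-disc and titin genes (Actn2, Ttn, Xirp2 and Smpx), and the others were Myl1, Casq1, Jph1 and Eno3. Actn2, the alpha-actinin that heart and skeletal muscle share, lay at -0.99, -1.09, 0.91 and 0.12 in double-deficient aortas and at -0.56, -0.11, 0.51 and 0.11 in ApoE-deficient replicates 1 to 4. Ttn, which encodes titin, lay at -1.12, -0.95, 0.33 and 0.99 against -1.08, 0.53, 0.81 and -0.33. Xirp2, an actin-binding protein of heart and skeletal muscle, lay at -0.77, -1.06, 0.78 and -0.07 against -0.75, 0.58, 0.44 and 0.07. Each was above 0 on double-deficient replicate 3, where the fast-fibre genes were low. The probe sets of Xirp2 differed there, at 1.24 and 0.33. Smpx, a small protein of striated muscle, was at 0.35 on that array, while Tcap, which caps titin, was at -0.05.

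Actn3, the alpha-actinin of fast fibres, and Myoz1, a calcineurin-binding Z-disc protein of fast fibres, followed the fast-fibre order instead. Actn3 lay at -0.12, -0.99, -0.86 and 0.35 in double-deficient aortas and at -0.87, 1.39, 1.20 and 0.12 in ApoE-deficient replicates 1 to 4. The genotype differences of the Z-disc and titin genes ran from -0.86 (SE 0.54) for Actn3 to -0.17 (SE 0.58) for Ttn. Between them were Tcap at -0.81, Myoz1 at -0.70, Xirp2 at -0.36, Smpx at -0.27 and Actn2 at -0.25. Over the 7 genes shared with heart muscle (Actn2, Ttn, Tcap, Trdn, Mb, Xirp2 and Smpx) the mean was 0.20 on double-deficient replicate 3. For the fast-fibre genes it was -0.96 on that array. Of the 7, Tcap, Trdn and Mb were below 0 there, at -0.05, -0.21 and -0.68.

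**Figure D2:**
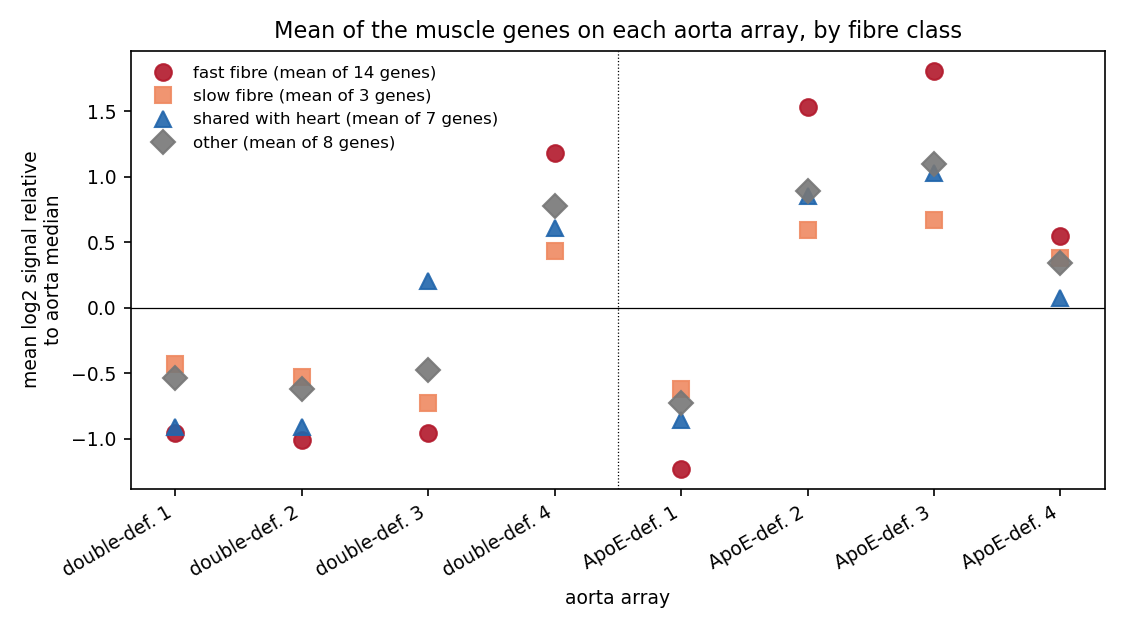
Mean log2 signal relative to the aorta median (vertical axis) of the 14 fast-fibre, 3 slow-fibre, 7 heart-shared and 8 other genes on each of the 8 aorta arrays (horizontal axis), with a dotted line between the genotypes. The class means lie on the same side of 0 on 7 arrays. On double-deficient replicate 3 the mean of the heart-shared genes is 0.20 and that of the fast-fibre genes -0.96.

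The calcium-handling genes ran from wide to narrow spread. Atp2a1, the calcium pump of fast fibres, lay at -1.73, -1.45, -0.59 and 1.80 in double-deficient aortas and at -1.63, 2.17, 2.11 and 0.59 in ApoE-deficient replicates 1 to 4, a difference of -1.30 (SE 1.05). Pvalb, the calcium buffer parvalbumin, lay at -1.53, -0.30, -1.40 and 1.05 against -1.33, 1.77, 2.31 and 0.30, a difference of -1.31 (SE 0.89). Both had overlapping groups. Casq1, the calcium-storage protein calsequestrin of fast fibres, lay at 0.12, -0.12, -0.60 and 0.94 against -0.80, 0.98, 1.45 and -0.35, and ApoE-deficient replicate 4 was thus not among its 4 highest arrays. Its difference was -0.24 (SE 0.55).

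Trdn, which encodes the calsequestrin anchor triadin, differed by -0.56 (SE 0.48). Cacna1s, the voltage sensor of the surface membrane, differed by -0.34 (SE 0.28). Ryr1, the calcium release channel, differed by -0.11 (SE 0.13). Jph1, which encodes a junctophilin that ties the surface membrane to the calcium store, was the 1 gene of the 32 with a positive difference. It lay at -0.26, 0.27, 0.01 and 0.50 in double-deficient aortas and at -0.66, -0.08, -0.01 and 0.04 in ApoE-deficient replicates 1 to 4, a difference of 0.31 (SE 0.21, adjusted p = 0.782).

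The genes of energy and oxygen supply had the common order, except Eno3. Ckm, the creatine kinase of muscle, lay at -1.27, -1.32, -0.70 and 0.76 in double-deficient aortas and at -1.42, 1.33, 1.74 and 0.83 in ApoE-deficient replicates 1 to 4, a difference of -1.25 (SE 0.75). Mb, the oxygen-binding protein myoglobin, lay at -1.93, -0.77, -0.68 and 0.92 against -1.58, 1.65, 1.70 and 0.68, a difference of -1.23 (SE 0.84). Pygm, the glycogen phosphorylase of muscle, differed by -0.72 (SE 0.48). Eno3, the muscle enolase, differed by -0.39 (SE 0.34), and on ApoE-deficient replicate 1 it was at 0.02 while the mean of the 32 genes was -0.97.

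Set together, 31 of the 32 genes had a negative difference in aorta, against 47.2% of all genes, and 21 had a difference of -0.5 or lower, against 3.32% of all genes (this limit was set after the values were seen). The median difference was -0.78 over the 32 genes and 0.01 over all genes. None of the 32 passed the adjusted threshold in limma, where 0.00451% of all genes did (1 gene), and 1 of 32 had an unadjusted p under 0.05, against 7.72% of all genes. The groups were free of overlap for 0 of the 32, against 4.3% of all genes. The 32 genes were read on the same 8 arrays, so the 31 are not separate observations.

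Single arrays moved these counts. Without ApoE-deficient replicate 1 the median difference was -1.25 and 16 of the 32 genes had an unadjusted p under 0.05, against 6.96% of all genes. Without double-deficient replicate 4 the median was -1.17 and 8 had one, against 6.53% of all genes. Without double-deficient replicate 1, 2 or 3 or ApoE-deficient replicate 2 or 3, 0 had one. The median was -0.53 without ApoE-deficient replicate 3. Without ApoE-deficient replicate 4 the median was -0.85 and 1 had one. The share over all genes is not given for these fits with 0 or 1, so their counts cannot be set against it. In none of the 8 fits that left out 1 array did any of the 32 pass the adjusted threshold.

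**Figure D3:**
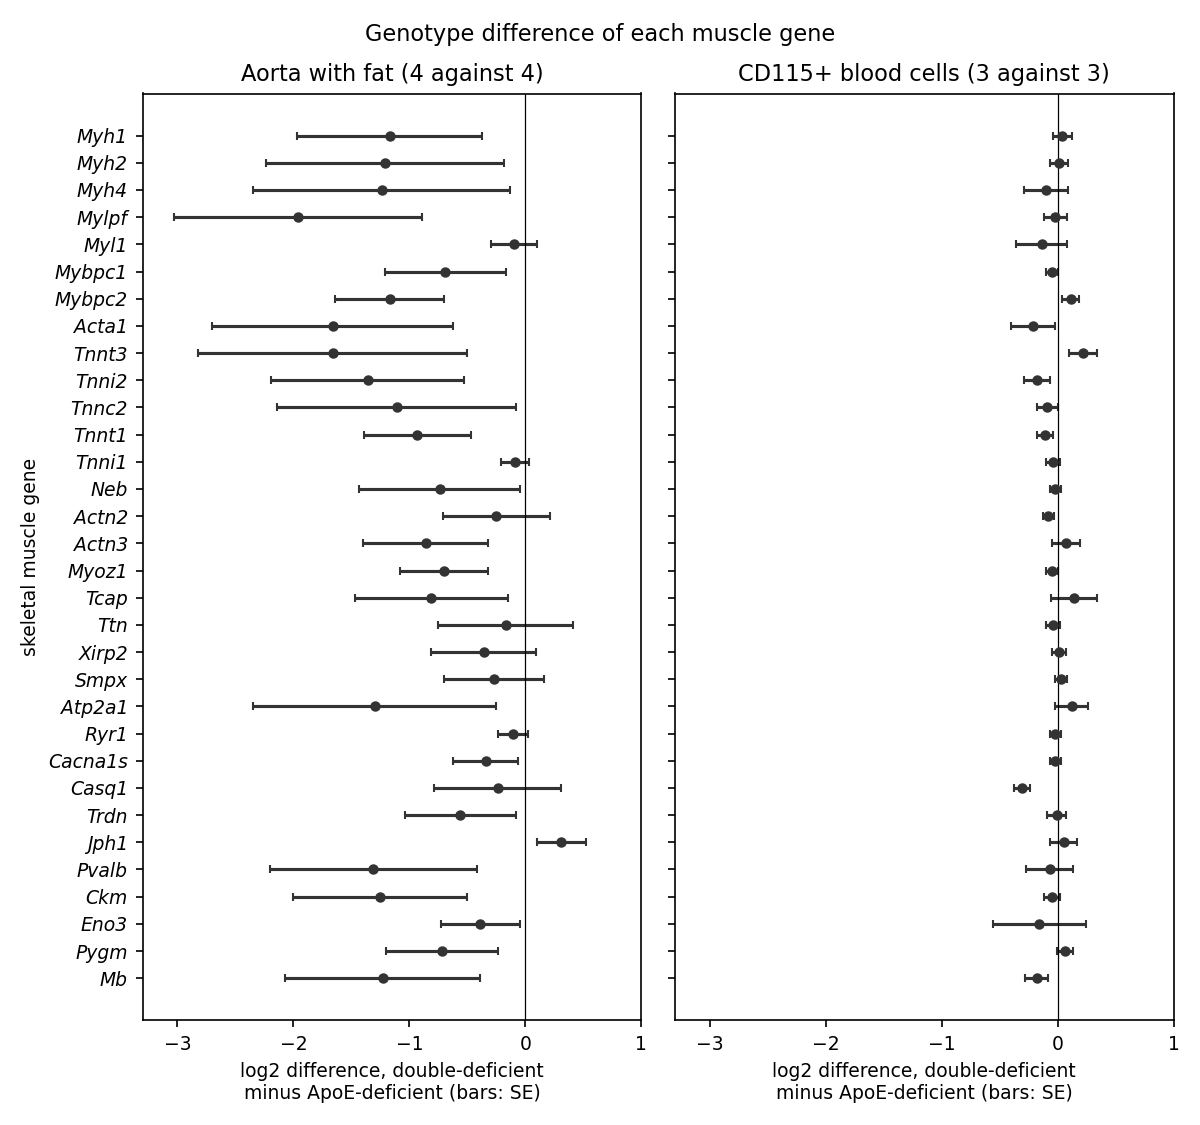
Log2 difference of each of the 32 genes (rows), double-deficient minus ApoE-deficient, in aorta (left, 4 against 4 arrays) and in CD115+ cells (right, 3 against 3), with bars of 1 SE from limma. In aorta 31 points lie below 0 with wide bars, and in CD115+ cells the points run from -0.31 (Casq1) to 0.22 (Tnnt3).

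In CD115+ cells the muscle genes hardly varied. The mean of the 32 genes was 0.07, -0.06 and -0.04 in double-deficient replicates 1 to 3 and -0.02, 0.05 and 0.04 in ApoE-deficient replicates 1, 3 and 4. The median SD within genotype was 0.10, against 0.11 over all genes, and 1 gene (Eno3) had a larger SD than 95% of all genes. The SD was larger in aorta than in CD115+ cells for 30 of the 32, against 77.0% of all genes. Eno3 lay at -0.57, -0.56 and 0.86 in double-deficient cells and at 0.23, -0.08 and 0.08 in ApoE-deficient cells, a difference of -0.16 (SE 0.40). Without double-deficient replicate 3 that difference was -0.64, and without replicate 1 or 2 it was 0.08 or 0.07.

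The genotype difference in CD115+ cells had a median of -0.03 over the 32 genes and -0.01 over all genes, and 21 of the 32 were negative, against 55.3% of all genes. In limma 0 of the 32 passed the adjusted threshold, as did 0% of all genes, and 1 had an unadjusted p under 0.05, against 4.39% of all genes. That gene was Casq1, at -0.25, -0.13 and -0.09 in double-deficient cells and 0.25, 0.09 and 0.10 in ApoE-deficient cells, a difference of -0.31 (SE 0.07, unadjusted p = 0.00564, adjusted p = 0.976). The groups did not overlap for Casq1 and Actn2, 2 of the 32, against 9.16% of all genes. For Actn2 the difference was -0.08 (SE 0.05).

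The genotype differences of the tissues were compared in 1 fit. None of the 32 differed between tissues after adjustment in limma, as for 0% of all genes, and 1 had an unadjusted p under 0.05, against 6.9% of all genes. That gene was Mybpc2, with -1.17 in aorta and 0.11 in CD115+ cells and a difference between them of -1.28 (SE 0.58, unadjusted p = 0.0471, adjusted p = 0.715).

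The deposited values hold no level, but their rounding gives a coarse bound. Values stored as 32-bit numbers have a coarser step at stored levels from 8 to 16 than from 4 to 8. A probe set whose values all keep the coarser step was read as at 8 or above on every array. A value below 8 can also fall on the coarser step by accident, so some probe sets of lower level pass this reading. For the same reason a coarse step on a single array does not place that array at 8 or above. Nor does a finer step on a single array place it below 8. The values are set against a median, and a median on the finer step passes that step on. In aorta all values kept the coarser step for a probe set of 4 of the 32 genes (Myl1, Tnnc2, Tnni2 and 1 of the 2 probe sets of Ckm), and in CD115+ cells for 0 of the 32. Over all probe sets the share was 12.2% in aorta and 8.10% in CD115+ cells, and for probe sets of olfactory receptors, which neither tissue is known for, it was 0.451% and 1.36%. Mylpf and Atp2a1 showed the finer step in aorta on exactly the 4 low arrays, double-deficient replicates 1 to 3 and ApoE-deficient replicate 1. Acta1 and Tnnt3 showed it on ApoE-deficient replicate 1 alone. In other genes it fell on high arrays too, as in Myh1 on double-deficient replicate 4 and ApoE-deficient replicates 2 and 3, and in Actn3 on double-deficient replicate 4 and ApoE-deficient replicates 2 to 4. These 6 genes were picked as examples after their values were seen. The labelled tissues were read the same way. Of 15 smooth muscle genes 9 were read as at 8 or above on all aorta arrays, Acta2, Myh11 and Tagln among them. On all CD115+ arrays 6 were, and those 3 were again among them. Of 14 monocyte and macrophage genes 7 were so on all CD115+ arrays, with Csf1r, the gene of CD115, among them, and 5 on all aorta arrays.

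The DNA before the start sites of these genes was set beside their shared order. RefSeq promoters of GRCm38.p6 were at hand for 24 of the 32 genes, each a window from 250 bases before to 50 after a start site. An E-box of the letters CAGCTG, the kind that myogenic factors such as MyoD bind, was in a window of 13 of the 24 (54.2%) and of 18.3% of 27025 genes in the table. The MCAT letters CATTCC were in 8 (33.3%), against 16.6%, and TATAAA in 6 (25.0%), against 15.7%. The MEF2 motif was in 2 (8.33%), against 0.636%, and the CArG box in 2 (8.33%), against 1.81%. Both strands were searched, the E-box reads the same on both, and a MEF2 motif can contain the TATAAA letters. A match is a description of letters and no site of binding.

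The 250 bases before the start are given for 4 genes of wide aorta spread that differ in these letters, 5′ to 3′ on the gene's strand with the E-box in capitals. They lie at chr11:67237562-67237811 (plus strand) for Myh4, chr8:123894776-123895025 (minus strand) for Acta1, chr7:19410844-19411093 (plus strand) for Ckm and chr2:164779735-164779984 (minus strand) for Tnnc2.
Myh4: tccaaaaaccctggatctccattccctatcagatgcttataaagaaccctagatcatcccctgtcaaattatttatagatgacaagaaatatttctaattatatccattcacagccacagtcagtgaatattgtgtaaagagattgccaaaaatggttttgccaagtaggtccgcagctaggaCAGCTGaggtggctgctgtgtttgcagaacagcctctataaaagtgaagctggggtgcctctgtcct
Acta1: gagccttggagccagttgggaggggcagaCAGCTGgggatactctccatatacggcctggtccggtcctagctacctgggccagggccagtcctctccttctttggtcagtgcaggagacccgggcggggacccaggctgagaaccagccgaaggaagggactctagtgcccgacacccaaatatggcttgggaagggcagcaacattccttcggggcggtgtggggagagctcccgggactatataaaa
Ckm: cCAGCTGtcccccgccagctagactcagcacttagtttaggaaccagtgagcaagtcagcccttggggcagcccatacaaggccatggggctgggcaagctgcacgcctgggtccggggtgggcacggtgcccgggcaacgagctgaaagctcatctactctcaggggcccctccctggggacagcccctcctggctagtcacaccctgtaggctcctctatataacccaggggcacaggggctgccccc
Tnnc2: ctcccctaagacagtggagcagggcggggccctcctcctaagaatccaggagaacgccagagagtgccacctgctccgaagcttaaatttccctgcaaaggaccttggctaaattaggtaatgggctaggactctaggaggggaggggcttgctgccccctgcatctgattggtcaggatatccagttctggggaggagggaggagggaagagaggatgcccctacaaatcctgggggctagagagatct
In Myh4 the E-box begins 67 bases and a CArG box 104 bases before the start, and in Acta1 221 and 73 bases before it. The E-box of Ckm begins 249 bases before the start, at the edge of the window. Tnnc2 held none of the 5 motifs, and its aorta values spanned 17.4-fold with the same 4 high arrays as the other 3. Tnni1 held an E-box 68 bases before a start and spanned 1.41-fold.

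Other genes of striated muscle, listed apart from the 32, had the same order in part. Of 72 measured, 21 had the same 4 highest arrays and 20 had an SD above that of 95% of all genes. Their median difference in aorta was -0.07, with 46 negative, against 47.2% of all genes, and 0 past the adjusted threshold in limma. An unadjusted p under 0.05 was found for 6 (5 lower and 1 higher), against 7.72% of all genes. Ckmt2, the mitochondrial creatine kinase of striated muscle, lay at -2.44, -1.62, -0.85 and 0.97 in double-deficient aortas and at -1.73, 1.64, 1.84 and 0.85 in ApoE-deficient replicates 1 to 4. Myot, which encodes the Z-disc protein myotilin, lay at -1.03, -1.45, -0.51 and 1.04 against -1.79, 1.89, 2.30 and 0.51. Of the 11 genes of slow fibres and heart, 5 had the same 4 highest arrays and 6 a negative difference (median -0.22). Some of these 11 were also among the 72, and the list of other striated muscle genes shares genes with the brown adipocyte list.

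Among genes of muscle that is being formed, Myh8, the neonatal myosin, had the same 4 highest arrays and a difference of -0.31 (SE 0.18), and Myh3, the embryonic myosin, lay between -0.08 and 0.07 on all 8 arrays. Of 12 myogenic factors and satellite cell genes 0 had the same 4 highest arrays and 0 an SD above that of 95% of all genes, and their median difference was 0.02. Mef2c, a transcription factor that B cells also express, had the largest difference of that list, -0.64 (SE 0.18, unadjusted p = 0.00682, adjusted p = 0.466). It lay at -0.53, -0.20, -0.33 and -0.13 in double-deficient aortas and at 0.83, 0.18, 0.32 and 0.04 in ApoE-deficient replicates 1 to 4, so its groups did not overlap and ApoE-deficient replicate 1 was its highest array. Myod1, the myogenic factor MyoD, lay between -0.22 and 0.25 on all 8 arrays.

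Genes were also ranked by the likeness of their aorta values to the mean of the 32, by Pearson correlation over the 8 arrays. Gene models, small RNAs, pseudogenes, and olfactory, vomeronasal and taste receptors were left out of this ranking by their names, as were the 32. The 10 highest of the rest were Myot (r = 0.986), Dnajc22 (0.978), Ckmt2 (0.970), Ankrd23 (0.968), Mfsd4b1 (0.953), Klhl31 (0.951), C2cd4b (0.944), Smtnl1 (0.939), Lrrc30 (0.936) and Cox6a2 (0.932). The arrays fall into a high and a low set for these genes, so r is given as a measure of likeness only. Of the 10, Myot, Ckmt2, Klhl31 and Cox6a2 were on the list of other striated muscle genes. That list is not complete, so absence from it does not make a gene foreign to striated muscle. The ranges of the 10 over the arrays went from 0.30 for C2cd4b to 4.29 for Ckmt2.

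Genes of the heart had another order. The mean of 17 cardiac genes was -0.50, 0.22, 0.78 and 0.28 in double-deficient aortas and -0.18, -0.04, 0.08 and -0.09 in ApoE-deficient replicates 1 to 4, with 4 negative differences and a median of 0.16. Double-deficient replicate 3 held the highest values, with Nppb, a natriuretic peptide gene, at 4.60 and Myh6, the alpha myosin heavy chain of heart muscle, at 2.11. That is the array on which Actn2 and Xirp2 had their highest values. For Xirp2 this held for the average and for 1 of its 2 probe sets, at 1.24. The other was at 0.33 there and was highest on ApoE-deficient replicate 2, at 0.73. The part of heart RNA in Actn2 and Xirp2 was not tested.

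Of 15 smooth muscle genes 1 had a negative difference (median 0.31), with means of 0.08, 0.39, 0.22 and 0.04 in double-deficient aortas and -0.29, -0.29, 0.07 and 0.01 in ApoE-deficient aortas. None of the 15 had the same 4 highest arrays as most of the muscle genes. Lymphocyte genes split the arrays in yet another way. The mean of 14 B cell genes was -0.34, -0.27, -0.13 and -0.23 in double-deficient aortas and 2.04, 2.16, -0.21 and 1.29 in ApoE-deficient replicates 1 to 4 (median difference -1.70, 13 negative). ApoE-deficient replicate 1 was thus high in B cell genes and lowest in muscle genes, and ApoE-deficient replicate 3 was highest in muscle genes and low in B cell genes. The 13 T cell genes were all negative, with a median of -1.06.

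**Figure D4:**
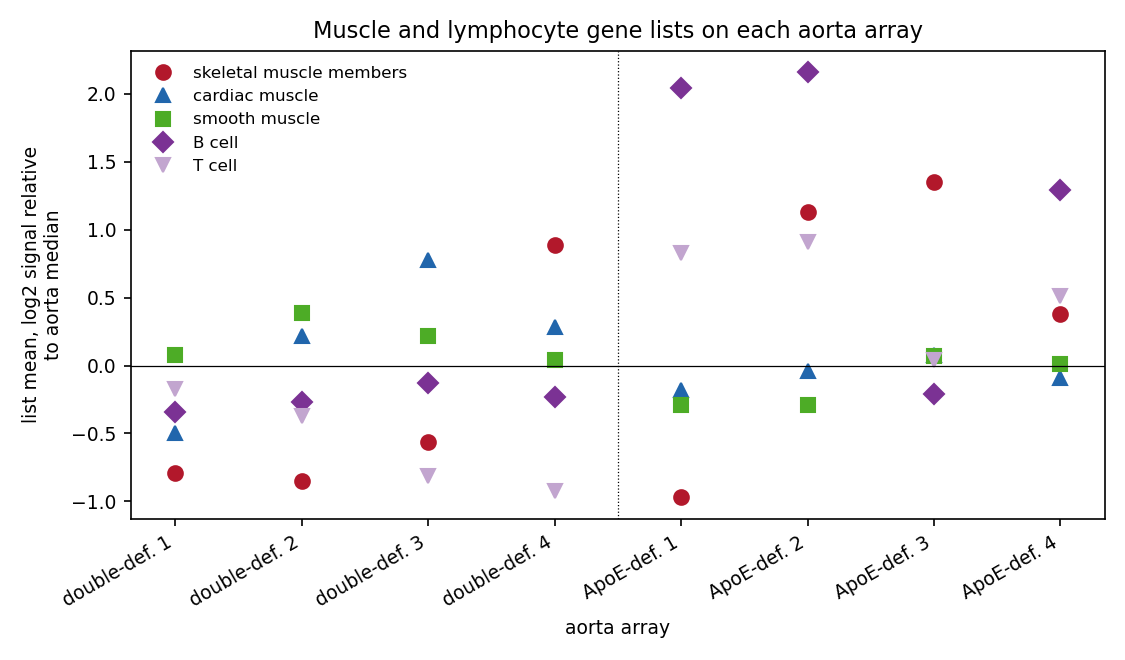
Mean log2 signal relative to the aorta median (vertical axis) of the 32 skeletal muscle genes and of the cardiac, smooth muscle, B cell and T cell lists on each of the 8 aorta arrays (horizontal axis), with a dotted line between the genotypes. The skeletal muscle mean is -0.97 and the B cell mean 2.04 on ApoE-deficient replicate 1, and on ApoE-deficient replicate 3 they are 1.35 and -0.21.

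The remaining lists are given by their counts. Negative differences were counted for 3 of 12 white adipocyte genes (median 0.15), 6 of 12 brown adipocyte genes (0.00), 1 of 16 endothelial genes (0.19) and 1 of 14 nerve genes (0.38). The counts were 3 of 5 red blood cell genes (median -0.01), 7 of 14 monocyte and macrophage genes (0.07), 5 of 8 mesothelial genes (-0.02), 8 of 12 cartilage and bone genes (-0.05) and 2 of 7 tendon genes (0.05). In these 9 lists 2 brown adipocyte genes and 1 tendon gene had the same 4 highest arrays as most of the muscle genes.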

How the data were processed

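RNA (1 ng per sample) was amplified with the Ovation Pico WTA System and biotin was used as label, per the labels' protocols. The authors deposited log2 values (the log base is read here and not stated) for 33793 probe sets on 14 arrays. How they were normalized, summarised and background-corrected is not given in the sources used here. In each probe set the median over the arrays of each tissue was 0 within 1e-06, so values were centred before deposition. A platform annotation gave 23521 probe sets 1 symbol, 1814 several and 8458 none, and only the first were used, averaged per gene. No gene was filtered out before the fits. Groups came from the titles. Genotypes were compared in limma 3.58.1 (R 4.3.3, lmFit and eBayes without trend) within each tissue, and the tissues in 1 fit of the 4 groups. The scripts were tested on simulated data. The members, lists and promoter motifs were chosen with earlier results of these data known. All 32 genes are named. Other genes named are the 10 most like the mean of the 32 (after the exclusions by name given above), up to 4 per list with the largest difference, and Ltbr. Acta2, Tagln, Csf1r and the airway, pancreas and adrenal genes fall outside this rule and were chosen after their values were seen. Genes of a list that are not named are given by count. Alternatives were leaving out each array, the replicate number as a block, the probe set of largest SD, trended or robust eBayes, array weights, centring, quantile normalization, and leaving out the pools.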

Additional observations from a re-analysis of the deposited data

Results flagged for a closer look

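Double-deficient replicate 4 stood far above the other 3 double-deficient aortas for 6 of the 32 genes. It lay at 1.96 for Myh2, 2.19 for Myh4, 1.76 for Mylpf, 1.59 for Acta1, 1.63 for Tnnc2 and 0.99 for Trdn, and its gap to the nearest other array was over 0.829 of the group's range in each. Of 64 groups of 4 examined (32 genes in each genotype) these 6 were the only ones, and chance gives about 1 in 20, or 3.2 groups. The 6 genes share the array, so they are not separate observations. The reason for the high values on this array was not tested.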

How the results depend on the processing

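Of the values that answer a comparison, 152 were kept within a tolerance, 14 became weaker, 7 stronger and 1 reversed. A count was kept if it stayed near the main count. A median was kept if it moved by less than its SD between arrays within genotype (0.9 in aorta, 0.03 in CD115+ cells). Thus an aorta median of -1.25 or -0.53 was kept against -0.78, and 15 negative differences in CD115+ cells against 21. The aorta tolerance of 0.9 is larger than the median itself, so a median of 0 would have been kept too. Counts of 0 that stayed 0 are also among the 152. Of the values of single genes, 553 kept their sign and 11 reversed. The cause was not tested in any. Part of the kept values was fixed in advance. Trended and robust eBayes change only the spread used in the test, so differences and their medians stay the same. The replicate block leaves them the same in aorta, where each number has 1 array of each genotype. For a gene with a single probe set, the probe set of largest SD is that same one. The 1 gene called in aorta became 0 with the probe set of largest SD, with robust eBayes and with array weights, and 0 to 74 when 1 array was left out (74 without ApoE-deficient replicate 3, 3 without double-deficient replicate 4). Genes called for the difference between tissues ran from 0 to 58 (30 without ApoE-deficient aorta replicate 3, 58 without double-deficient CD115+ replicate 1, 1 without double-deficient aorta replicate 2). Muscle genes at an unadjusted p under 0.05 in aorta ran from 0 to 16. Their median difference in CD115+ cells, -0.03, was 0.01 without the pooled preparations. Leaving out 1 array gave signs of both kinds in aorta for Myl1 (-0.22 to 0.06), Actn2 (-0.64 to 0.03), Ttn (-0.57 to 0.14), Smpx (-0.56 to 0.00) and Casq1 (-0.61 to 0.14), and in CD115+ cells for Eno3 (-0.64 to 0.08). Over all alternatives the smallest adjusted p of a muscle gene in limma was 0.566 in aorta, 0.145 in CD115+ cells and 0.518 for the difference between tissues.

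Whether the replicate numbers pair the samples cannot be settled from so few arrays. Same-numbered aortas correlated at 0.17, -0.15, -0.14 and 0.06 in their deviations from the group means. Aortas of different numbers correlated between -0.14 and 0.25. Same-numbered CD115+ samples correlated at -0.47 and -0.29, and those of different numbers between -0.18 and 0.35. With the replicate number as a block, 1 gene was called in aorta, the median of the muscle genes was -0.78 in aorta and 0.00 in CD115+ cells, and Eno3 in CD115+ cells was 0.07. Without a background signal or detection call, a weak gene cannot be told from background.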

Other observations

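Genes of other organs were high on single aorta arrays, in lists drawn up after the values were seen. The mean of 5 airway secretory genes (Scgb1a1, Scgb3a1, Scgb3a2, Bpifa1 and Bpifb1) was 6.17 on double-deficient replicate 3 and 5.85 on ApoE-deficient replicate 2, and between -1.03 and 0.76 on the other arrays. The mean of 6 genes of the exocrine pancreas (Ctrb1, Cpa1, Cpb1, Prss2, Cel and Clps) was 6.76 on ApoE-deficient replicate 2 and between -0.08 and 0.12 elsewhere. The mean of 3 genes of the adrenal cortex (Cyp11b1, Star and Hsd3b1) was 5.95 on ApoE-deficient replicate 3 and between -0.16 and 0.42 elsewhere. On double-deficient replicate 4 the muscle genes averaged 0.89 and these lists 0.76, -0.02 and 0.05. On ApoE-deficient replicate 4 the muscle genes averaged 0.38 and these lists 0.19, -0.08 and -0.16.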
